A study of Rattus norvegicus with 10 samples.

Results

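The heat shock proteins and the DnaJ proteins are the main molecular chaperones of the cell, and 70 of the 17168 gene symbols in the count table belong to them. They were chosen by symbol only: Dnaja, Dnajb and Dnajc genes, and Hsp90, Hspa, Hspb, Hspd, Hspe and Hsph genes, without Hspbp1 and Hspbap1, which encode Hsp-binding proteins. The set holds 43 DnaJ genes (4 Dnaja, 13 Dnajb and 26 Dnajc) and 27 Hsp genes. RNA came from the left hippocampus of female TgF-344AD rats, a transgenic model of Alzheimer's disease that carries mutant human amyloid precursor protein and presenilin genes. The untreated group was 5 transgenic rats on plain chow. The RG2833 group was 5 transgenic rats fed chow with 750 mg of RG2833 per kg for 6 months from the age of 5 months. All 10 animals were killed at 11 months, and no non-transgenic animals are among these samples. RG2833 is an inhibitor of the histone deacetylases HDAC1 and HDAC3, and a blue dye told the chows apart.

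Hsp70 proteins bind exposed hydrophobic stretches of unfolded proteins and release them on an ATP cycle. DnaJ proteins bring clients to Hsp70 and stimulate its ATPase through their J domain, Hsp110 proteins exchange its nucleotide, and Hsp90 takes over clients such as kinases and steroid receptors. Small Hsps hold unfolded proteins without ATP, and the Hspd1-Hspe1 chaperonin folds proteins inside mitochondria. Transcription of the inducible members is driven by heat shock factor, and that of endoplasmic reticulum (ER) members by the unfolded protein response.

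Promoter sequences are shown first, because heat shock factor and the unfolded protein response act through known DNA elements. RefSeq windows (GRCr8, 250 bases before to 50 bases after the annotated gene start) were matched by symbol for 55 of the 70 members. The heat shock element was searched on both strands as GAA, 2 free bases, TTC, 2 free bases and GAA. It was present in 5 of the 55 member windows (9.09%) and in 0.798% of all 33469 windows. The 5 genes, Dnaja1, Hspa8, Hspd1, Hspe1 and Hsph1, are all on a list of 11 heat-inducible members, of which 9 had a window. The matched bases are in capitals. Hspd1 and Hspe1 share the same element on opposite strands, where 2 matches overlap, so Hspe1 alone is printed. Hspa8 has a second match that is not shown.
Hspa8 (chr8:50080287-50080327, plus strand): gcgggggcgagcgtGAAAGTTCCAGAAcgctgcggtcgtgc
Hsph1 (chr12:10427318-10427358, plus strand): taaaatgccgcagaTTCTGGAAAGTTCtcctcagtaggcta
Hspe1 (chr9:64084248-64084293, plus strand): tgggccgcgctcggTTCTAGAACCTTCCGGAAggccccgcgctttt
Dnaja1 (chr5:60638399-60638439, plus strand): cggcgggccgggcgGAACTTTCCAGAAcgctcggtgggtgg

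The ER stress element was searched on both strands as CCAAT, 9 free bases and CCACG. It was in the windows of 3 of the 55 matched members (5.45%) and in 0.0657% of all windows. These 3, Hspa5, Hsp90b1 and Dnajc3, are ER members, and Hsp90b1 has a second match that is not shown. A match describes these letters only and is no measured binding site.
Hspa5 (chr3:38452959-38453005, plus strand): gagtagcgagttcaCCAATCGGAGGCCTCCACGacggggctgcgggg
Hsp90b1 (chr7:23012437-23012483, minus strand): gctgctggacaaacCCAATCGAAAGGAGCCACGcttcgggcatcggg
Dnajc3 (chr15:102432520-102432566, plus strand): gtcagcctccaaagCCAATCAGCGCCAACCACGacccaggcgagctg

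The estimated counts summed to between 8764245 and 11311652 per animal. Levels are CPM with library sizes corrected by TMM factors. A call means an adjusted p under 0.05 in edgeR's quasi-likelihood test, with Benjamini-Hochberg adjustment over all tested genes. Ribosomal RNA loci took between 2.70 and 5.36% of counts in untreated animals and between 1.13 and 1.96% in RG2833 animals, with no overlap. Untreated replicate 1 had a summed level of 2471 CPM over 7 choroid plexus markers, while the remaining 4 untreated animals had 5.28 to 23.1 CPM and the RG2833 group 4.96 to 46.7 CPM. In bulk tissue, fewer cells of a type and less RNA per cell cannot be told apart. The labels say only that the samples are separate rats, so p-values measure the spread between these samples.

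Of the 70 members, 62 had enough counts to be tested, and 1 of the 62 (1.61%) was called, against 5.08% of all 11791 tested genes. That gene, Dnajb5, was higher in RG2833 animals, where 2.41% of all tested genes were called higher, and 0 members were called lower, against 2.67%. At an unadjusted p under 0.05, 6 members were higher and 5 lower, together 17.7% of the 62, against 24.5% of all tested genes. At an adjusted p under 0.1, 3 members passed (Dnajb5, Dnaja4 and Hspa1b), against 12.4% of all tested genes. The groups were without overlap in 0 of the 62 members and in 7.27% of all tested genes.

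The median log2 fold change (RG2833 minus untreated) was 0.06 over the 62 members and -0.0035 over all tested genes, and the median of its absolute size was 0.10 and 0.16. For 46 members (74.2%) the 95% interval of the log2 fold change lay wholly between -0.5 and 0.5, as it did for 58.8% of all tested genes. The median level was 5.49 log2 CPM for the members and 4.83 for all tested genes.

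**Figure D1:**
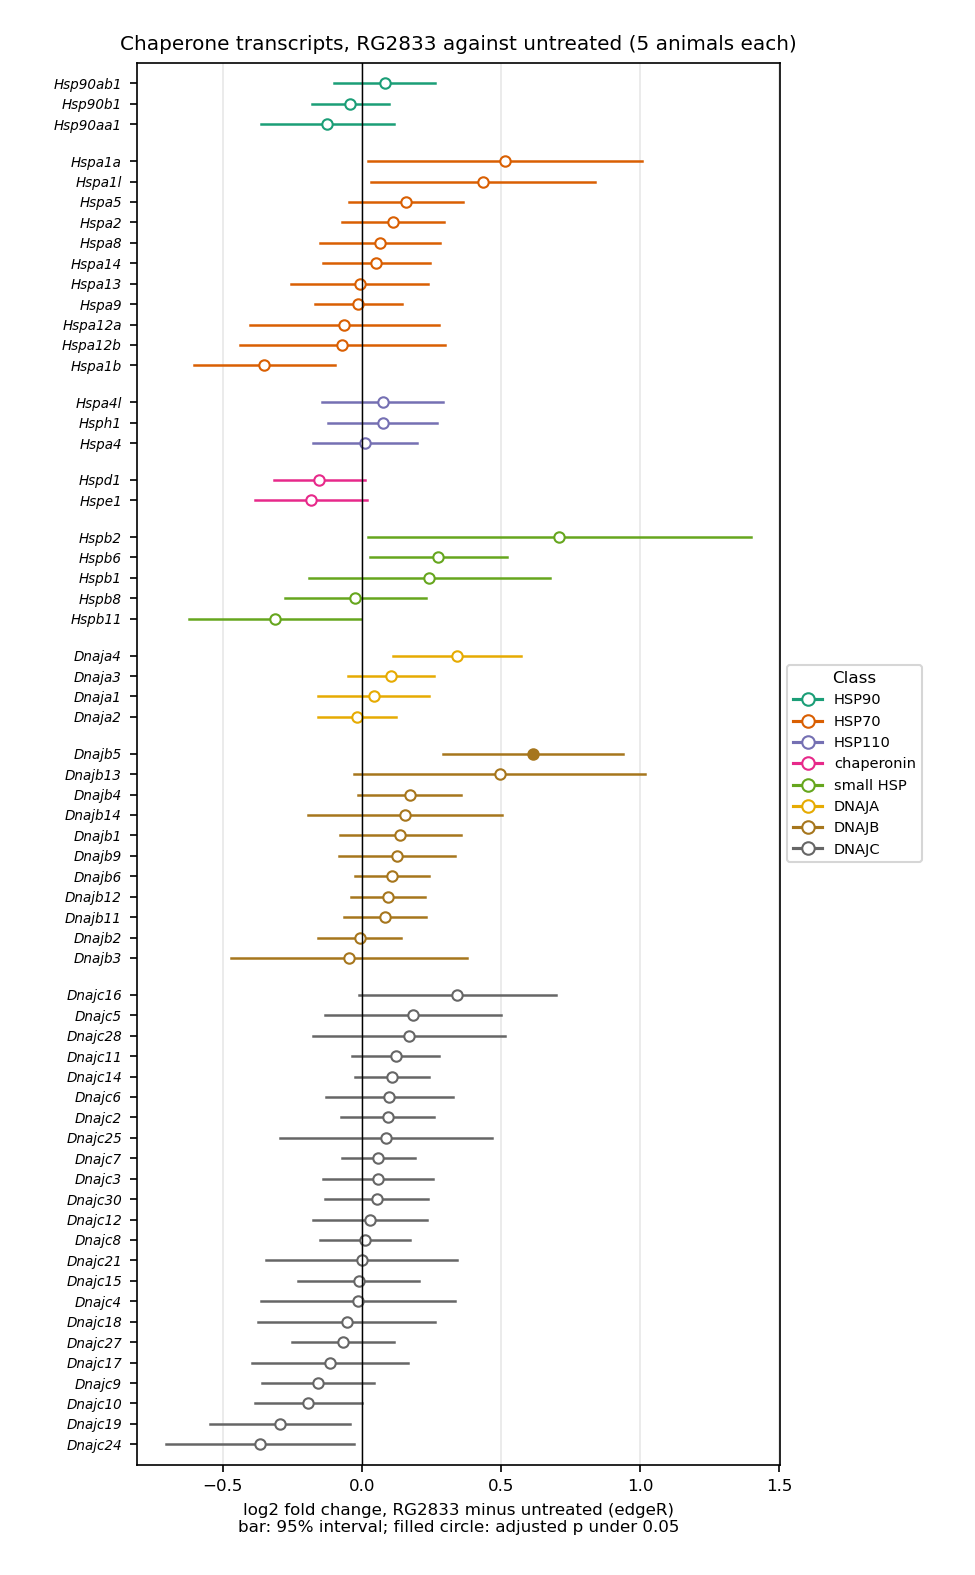
Log2 fold change (x axis, RG2833 minus untreated, edgeR) of the 62 tested chaperone genes, grouped by class, with 95% intervals and n = 5 animals per group. The filled circle marks an adjusted p under 0.05, which Dnajb5 alone reached, and 46 of the 62 intervals lie between -0.5 and 0.5.

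**Figure D2:**
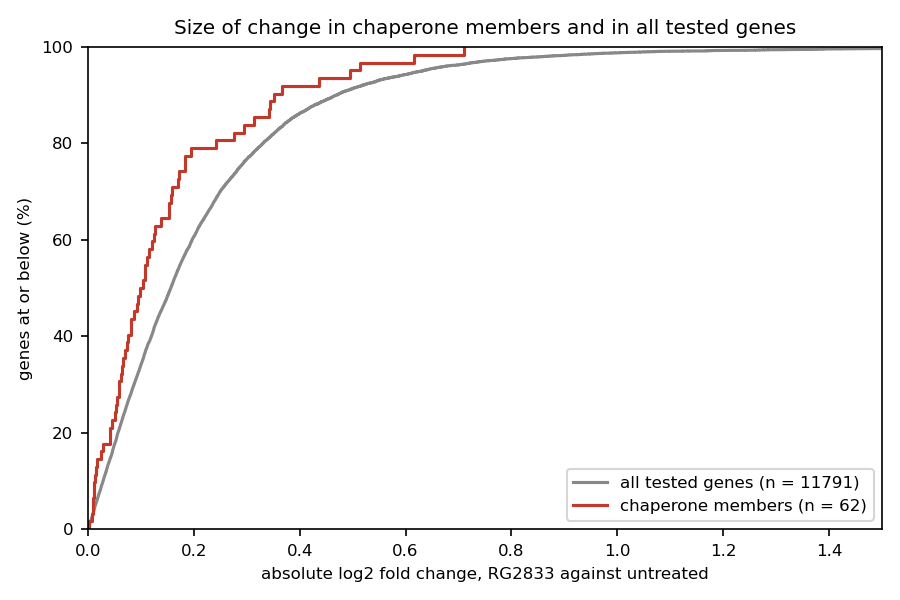
Cumulative share of genes (y axis, %) by absolute log2 fold change (x axis, shown to 1.5) for the 62 tested chaperone genes and all 11791 tested genes. The medians are 0.10 for the chaperone genes and 0.16 for all tested genes.

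Dnajb5 was the 1 chaperone gene that was called, with a higher mean in RG2833 animals. It encodes a DnaJ protein that has been found in a complex with thioredoxin and the class IIa deacetylase HDAC4. Untreated replicates 1 to 5 had 145, 147, 135, 231 and 126 CPM, and RG2833 replicates 1 to 5 had 219.6, 262, 247, 207 and 266 CPM. Untreated replicate 4 lay inside the RG2833 range, and the other 4 untreated animals lay below every RG2833 animal. The means were 157 ± 42.1 and 240.3 ± 25.96 CPM (SD, n = 5 each). The difference on the log2 scale was 0.62 with an SE of 0.15 (95% interval 0.29 to 0.94, edgeR adjusted p = 0.0391).

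Cell type markers were compared in the same animals. All 6 excitatory neuron markers (Slc17a7, Camk2a, Neurod2, Neurod6, Prox1 and Nrgn) had higher means in RG2833 animals, none was at 0, and 1 was called (16.7%, against 5.08% of all tested genes). Such counts in lists this short are no result about the list. Their summed level ran from 4899 to 6774 CPM in untreated animals, with untreated replicate 4 the highest, and from 6892 to 7542 CPM in RG2833 animals. Of 8 vascular markers, 7 had lower means in RG2833 animals, 0 were called and none was at 0, and their summed level ran from 241 to 342 CPM in untreated and from 225 to 254 CPM in RG2833 animals. Of 6 microglia markers, 5 had lower means and none was at 0, with a summed level of 245 to 356 CPM against 224 to 294 CPM. Of these, Aif1, a microglial actin-binding protein, was called lower (log2 difference -0.74, edgeR adjusted p = 0.0496). Of 6 inhibitory neuron markers, 5 had lower means and 0 were called, with a summed level of 411 to 766 CPM in untreated and 428 to 581 CPM in RG2833 animals. All 5 oligodendrocyte markers and 3 of 5 astrocyte markers had higher means, with 0 called. The part of these cell markers in the Dnajb5 difference was not tested. Fitting the ribosomal RNA share as a term gave Dnajb5 a log2 difference of 0.30 (edgeR adjusted p = 0.9999), and 0 members were called, against 0.017% of all genes. Because that share did not overlap between the groups, this fit cannot tell it apart from the treatment.

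Of the 10 fits that each left out 1 animal, Dnajb5 passed without untreated replicate 4 (0.80, edgeR adjusted p = 0.000546, 13.1% of all genes called) and without untreated replicate 5 (0.55, edgeR adjusted p = 0.0491, 7.61% of all genes called). In the other 8, its log2 difference was between 0.56 and 0.66 and its edgeR adjusted p between 0.0564 and 0.106. In those 8, 0 members were called, against 1.63, 2.37 and 0.954% of all genes without untreated replicates 1, 2 and 3. Without RG2833 replicates 1 to 5 the share of all genes called was 1.1, 0.945, 0.995, 1.8 and 0.826%.

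Dnajb5 was again the 1 member called under 7 other settings of scaling, filter or test. The share of all genes called was 5.11% with DESeq2 size factors, 5.05% with library totals, 3.21% without a filter, 6.28% at a mean count of at least 50 and 4.66% with limma-voom. With limma trend on the deposited signal it was 5.16% and 4.89% at pseudocounts of 1 and 0.1. DESeq2's Wald test called 3 members, against 11.4% of all genes, and a replicate block called 0, against 1.53%.

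**Figure D3:**
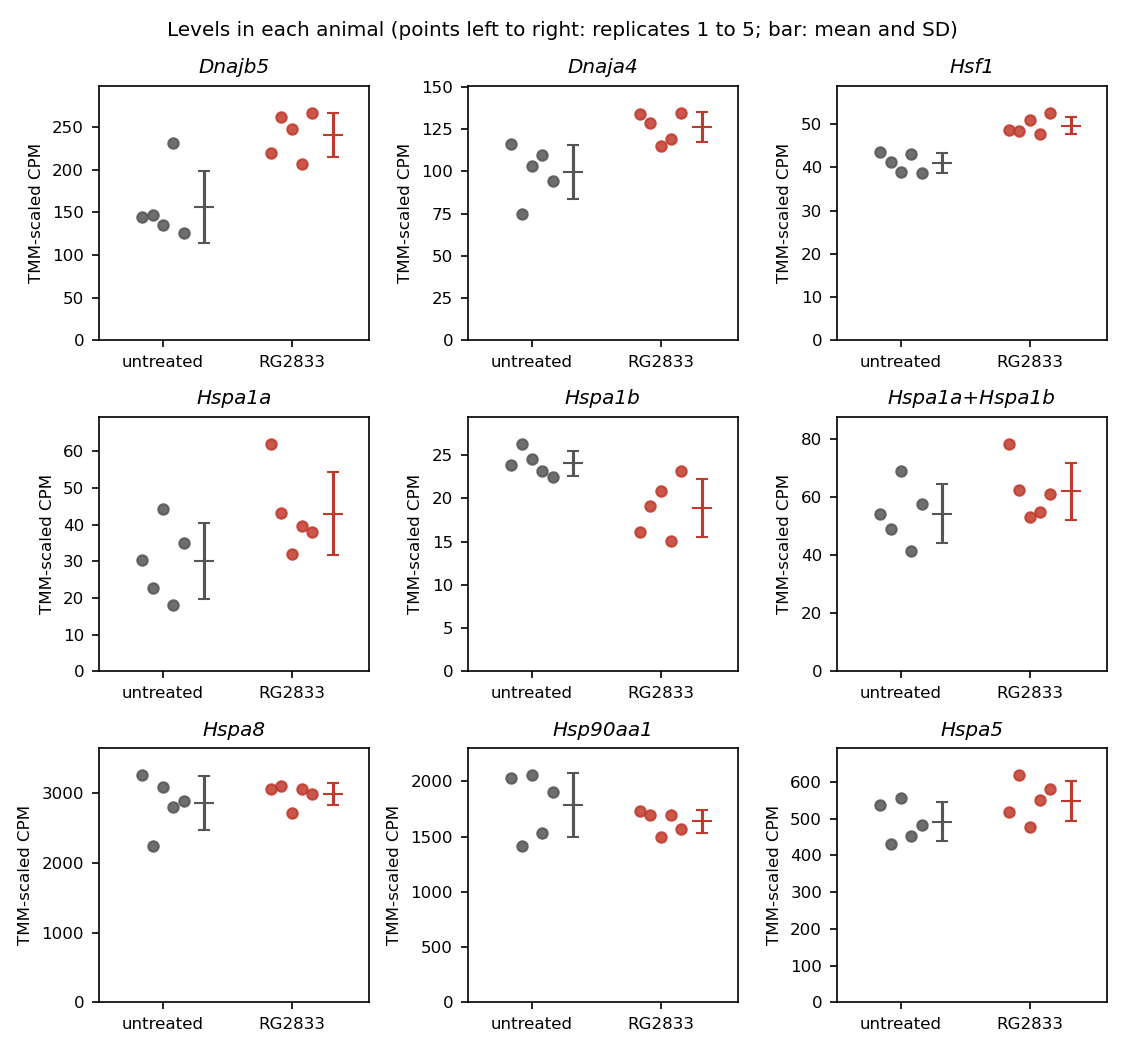
TMM-scaled CPM (y axis, from 0) of 8 genes and the merged Hspa1a and Hspa1b pair in each of 5 untreated and 5 RG2833 animals, with mean and SD (bars). Untreated replicate 4 lies among the RG2833 animals for Dnajb5, and Hsf1 is the only panel whose groups do not overlap.

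Of the 5 genes with a heat shock element in the window, 0 were called, against 5.08% of all tested genes, which is near the background and no result about these genes. Hspa8, the constitutive cytosolic Hsp70 that also uncoats clathrin vesicles, was at 3261, 2239, 3094, 2808 and 2898 CPM in untreated replicates 1 to 5. In RG2833 replicates 1 to 5 it was at 3069, 3111, 2722, 3062 and 2988 CPM. The RG2833 values lay inside the untreated range (log2 difference 0.06, 95% interval -0.15 to 0.28, edgeR adjusted p = 0.73). Hsph1, an Hsp110, was at 387, 311, 428, 425 and 428 CPM in untreated replicates and at 415, 419.7, 401, 409.9 and 438 CPM in RG2833 replicates. The groups overlapped, with untreated replicate 2 the lowest (log2 difference 0.07, 95% interval -0.12 to 0.27, edgeR adjusted p = 0.645). Dnaja1, a DnaJ partner of Hspa8, ran from 229 to 322 CPM in untreated and from 278 to 313 CPM in RG2833 animals. Untreated replicate 2 was again the lowest (log2 difference 0.04, 95% interval -0.16 to 0.24, edgeR adjusted p = 0.819).

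The mitochondrial chaperonin pair had lower means with RG2833 and did not pass. Hspd1 (Hsp60, the folding chamber) was at 212, 195, 233, 192 and 233 CPM in untreated replicates and at 193, 195, 179, 204 and 187 CPM in RG2833 replicates. The ranges overlapped (log2 difference -0.15, 95% interval -0.32 to 0.01, edgeR adjusted p = 0.232). Hspe1 (Hsp10, its lid) was at 118, 99.8, 107, 91.6 and 81.4 CPM and at 87.6, 95.3, 87.03, 86.7 and 81.3 CPM. These ranges overlapped as well (log2 difference -0.18, 95% interval -0.38 to 0.02, edgeR adjusted p = 0.245).

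Over all 11 heat-inducible members, 0 were called, 7 had a higher and 4 a lower mean in RG2833 animals. With 5.08% of all tested genes called, a count of 0 in a list or class of this size is near the background and is no result about that list, here and for the other lists. Dnajb1, the Hsp40 partner of inducible Hsp70, was at 58.1, 44.3, 56.99, 60.4 and 49.8 CPM in untreated replicates and at 57.1, 69.9, 51.8, 58.7 and 59.2 CPM in RG2833 replicates. The groups overlapped (log2 difference 0.14, 95% interval -0.08 to 0.36, edgeR adjusted p = 0.419). Hspb1 (Hsp27), a small Hsp, was at 15.7, 10.6, 13.1, 9.87 and 6.45 CPM and at 11.8, 14.4, 14.7, 10.3 and 14.5 CPM. Its interval was wide (log2 difference 0.24, 95% interval -0.19 to 0.68, edgeR adjusted p = 0.478). Hspa4l, another Hsp110, averaged 98.1 ± 15.5 and 103 ± 5.49 CPM (SD, n = 5 each, edgeR adjusted p = 0.681).

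The stress-inducible Hsp70 pair, Hspa1a and Hspa1b, had differences of opposite sign, neither of which passed. Both genes encode nearly the same protein, so reads can fit either, and their estimated counts were fractional in all 10 animals, as were those of the related Hspa1l. Of the 70 members, 6 had any fractional count (Hspa1a, Hspa1b, Hspa1l, Dnajb9, Dnajb13 and Dnajc19), against 14.04% of all genes in the table. The split of reads within the Hspa1 genes is therefore uncertain.

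Hspa1a was at 30.3, 22.8, 44.3, 18.1 and 35.01 CPM in untreated replicates and at 61.9, 43.2, 32.04, 39.7 and 37.9 CPM in RG2833 replicates. Its groups overlapped, with RG2833 replicate 1 the highest and untreated replicate 4 the lowest (log2 difference 0.51, 95% interval 0.02 to 1.01, edgeR adjusted p = 0.187). Hspa1b was at 23.9, 26.3, 24.6, 23.2 and 22.5 CPM and at 16.1, 19.1, 20.9, 15.1 and 23.2 CPM in the same order. Here 4 of the 5 RG2833 values were below every untreated value (log2 difference -0.35, 95% interval -0.61 to -0.10, edgeR adjusted p = 0.0928). The share of Hspa1a in the pair ran from 43.9 to 64.3% in untreated animals and from 60.5 to 79.3% in RG2833 animals. With both rows merged before the fit, the pair was at 54.2 ± 10.2 and 61.8 ± 9.89 CPM (SD, n = 5 each). The merged log2 difference was 0.19 (95% interval -0.10 to 0.49, edgeR adjusted p = 0.41), and the pair did not pass. It was 0.09 without RG2833 replicate 1, 0.11 without untreated replicate 4, 0.29 without untreated replicate 3 and 0.64 with the ribosomal RNA share as a term, and passed in none of these after adjustment.

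Other Hsp70 members did not pass either. Hspa9 (mortalin, the mitochondrial Hsp70) averaged 237 ± 21.6 and 235 ± 6.04 CPM (SD, n = 5 each), with a 95% interval of -0.17 to 0.15 for its log2 difference. Hspa2, Hspa12a, Hspa12b, Hspa13 and Hspa14 had log2 differences between -0.07 and 0.11. Hspa1l, a testis-enriched relative of Hspa1a, was at 2.29, 3.20, 3.15, 3.35 and 2.96 CPM in untreated replicates and at 3.34, 4.10, 3.62, 3.72 and 5.54 CPM in RG2833 replicates. Its ranges overlapped (log2 difference 0.44, edgeR adjusted p = 0.173).

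None of the 3 Hsp90 genes was called. Hsp90aa1, the inducible cytosolic form, was at 2026, 1414, 2054, 1533 and 1899 CPM in untreated replicates. RG2833 replicates had 1732, 1693, 1493, 1697 and 1568 CPM. These lay within the untreated range (log2 difference -0.13, 95% interval -0.36 to 0.11, edgeR adjusted p = 0.512). Hsp90ab1, the constitutive form, was at 2333, 1758, 2245, 2159 and 2137 CPM and at 2340, 2265, 2176, 2244 and 2220 CPM. The ranges overlapped, with untreated replicate 2 the lowest (log2 difference 0.08, 95% interval -0.10 to 0.26, edgeR adjusted p = 0.583). Hspa4, an Hsp110, averaged 270.1 ± 32.04 and 272 ± 10.8 CPM (SD, n = 5 each, edgeR adjusted p = 0.948).

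Among small Hsps, 3 of the 8 genes (Hspb3, Hspb7 and Hspb9) had too few counts to test, 0 of the other 5 were called, and the median half-width of the 95% interval was 0.31 on the log2 scale. Hspb6 (Hsp20), known from muscle, was at 41.3, 37.3, 32.6, 35.7 and 25.7 CPM in untreated replicates and at 41.1, 36.6, 45.8, 42.6 and 42.8 CPM in RG2833 replicates. The groups overlapped (log2 difference 0.27, 95% interval 0.03 to 0.52, edgeR adjusted p = 0.162). Hspb2, also a muscle gene, had the largest estimate of the 62 members, 0.71, from levels of 1.26, 1.10, 0.927, 1.86 and 0.529 CPM and 2.19, 1.87, 2.58, 1.24 and 1.46 CPM. It did not pass (95% interval 0.02 to 1.40, edgeR adjusted p = 0.191). Hspb11, which despite its symbol is a subunit of the intraflagellar transport complex of cilia, averaged 8.83 ± 1.08 and 7.11 ± 1.15 CPM (SD, n = 5 each, edgeR adjusted p = 0.199). Hspb8, the partner of Bag3 in clearing aggregates, averaged 26.3 ± 4.45 and 25.9 ± 2.28 CPM (edgeR adjusted p = 0.919).

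Other Dnaja and Dnajb genes did not pass. Dnaja4, a cytosolic Hsp70 partner, was at 116, 74.6, 103, 109 and 94.1 CPM in untreated replicates and at 134, 129, 115, 119 and 134 CPM in RG2833 replicates. Only untreated replicate 1 reached the lowest RG2833 value (log2 difference 0.34, 95% interval 0.11 to 0.57, edgeR adjusted p = 0.0782). Without untreated replicate 4 it passed (0.38, edgeR adjusted p = 0.0453), in a fit that called 13.1% of all genes. The mitochondrial Dnaja3 was at 71.95, 63.5, 65.3, 63.4 and 75.8 CPM and at 78.2, 74.6, 69.4, 73.8 and 69.3 CPM. Its ranges overlapped (log2 difference 0.10, edgeR adjusted p = 0.393).

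Dnajb6 and Dnajb2, known for holding back polyglutamine aggregation, had log2 differences of 0.11 (95% interval -0.03 to 0.24) and -0.01 (95% interval -0.16 to 0.14). Dnajb4, a close relative of Dnajb1, averaged 44.5 ± 4.72 and 50.2 ± 3.46 CPM (SD, n = 5 each, edgeR adjusted p = 0.236). Dnajb13, a component of the radial spokes of motile cilia, was at 28.8, 26.7, 17.3, 49.2 and 17.3 CPM in untreated replicates and at 34.4, 39.1, 47.5, 38.5 and 37.2 CPM in RG2833 replicates. Its highest value was that of untreated replicate 4 (log2 difference 0.49, 95% interval -0.03 to 1.02, edgeR adjusted p = 0.23). Without that animal Dnajb13 was called, in a fit that called 13.1% of all genes. The summed level of ependymal markers ran from 9.08 to 35.7 CPM in untreated and from 10.6 to 22.7 CPM in RG2833 animals, and 0 of the 4 tested ones were called. In the 11 tested Dnajb genes, 9 means were higher and 2 lower, with a median log2 difference of 0.13.

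The Dnajc genes are the most varied class, since most share only the J domain. Of 23 tested, 0 were called, with 13 higher and 10 lower means and a median log2 difference of 0.03 (0.006 without RG2833 replicate 4 and 0.054 without untreated replicate 1). Dnajc5 (cysteine string protein, which guards SNARE proteins on synaptic vesicles) was at 28.9, 34.7, 40.5, 46.4 and 54.3 CPM in untreated replicates. RG2833 replicates had 42.1, 42.3, 48.9, 45.5 and 53.98 CPM, all inside the untreated range (log2 difference 0.18, 95% interval -0.13 to 0.50, edgeR adjusted p = 0.465). Dnajc6 (auxilin, which recruits Hspa8 to uncoat clathrin vesicles) was at 393, 316, 426, 358 and 466 CPM and at 445, 381, 387, 416 and 469 CPM. The groups overlapped (log2 difference 0.10, edgeR adjusted p = 0.598).

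The lowest estimates among Dnajc genes were those of Dnajc24 and Dnajc19. Dnajc24, which acts in diphthamide synthesis on elongation factor 2, was at 8.24, 8.49, 6.21, 6.70 and 8.04 CPM in untreated replicates and at 5.72, 4.99, 7.44, 6.21 and 4.81 CPM in RG2833 replicates. The groups overlapped (log2 difference -0.37, 95% interval -0.71 to -0.03, edgeR adjusted p = 0.171). Dnajc19, a part of the motor that imports proteins into mitochondria, was at 32.1, 36.2, 29.004, 26.9 and 22.7 CPM and at 25.7, 23.5, 21.7, 25.7 and 23.2 CPM. Untreated replicate 5 alone lay among the RG2833 animals (log2 difference -0.29, 95% interval -0.55 to -0.04, edgeR adjusted p = 0.145). Without that animal Dnajc19 was called, as was Dnajc16, in a fit that called 7.61% of all genes. Over the 9 mitochondrial members, 0 were called, 4 means were higher and 5 lower, and the median log2 difference was -0.01. The 5 members of the nucleus and ribosome (Dnajc2, Dnajc8, Dnajc9, Dnajc17 and Dnajc21) had log2 differences between -0.16 and 0.09, and 0 were called.

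Of the 9 ER members in the table, 0 were called, 6 means were higher and 3 lower, and the median log2 difference was 0.08. Hspa5 (BiP, the Hsp70 of the ER lumen) was at 538, 430.1, 555, 453 and 483 CPM in untreated replicates and at 518, 618, 477, 552 and 580.3 CPM in RG2833 replicates. The groups overlapped (log2 difference 0.16, 95% interval -0.05 to 0.36, edgeR adjusted p = 0.321). Hsp90b1, the Hsp90 of the ER, was at 561, 518, 559, 497 and 538 CPM and at 504, 536, 503, 532 and 522 CPM. The RG2833 values lay inside the untreated range (log2 difference -0.04, 95% interval -0.18 to 0.10, edgeR adjusted p = 0.728). Dnajc3, which inhibits an eIF2-alpha kinase and helps BiP, averaged 18.2 ± 0.879 and 18.9 ± 1.90 CPM (SD, n = 5 each, edgeR adjusted p = 0.735).

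Dnajc10 (ERdj5, a disulfide reductase) was at 119.5, 97.3, 134, 111 and 137 CPM in untreated replicates and at 106, 107, 102, 107 and 101 CPM in RG2833 replicates. The RG2833 values formed a narrow band inside the untreated range (log2 difference -0.19, edgeR adjusted p = 0.201). The BiP partners Dnajb9 and Dnajb11 had log2 differences of 0.13 and 0.08, and the ER membrane proteins Dnajb12 and Dnajb14 of 0.09 and 0.15.

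The chaperone levels were also compared animal by animal. Untreated replicate 2 had the lowest level of the 10 animals in 20 of the 62 tested members (32.3%), against 15.99% of all tested genes, and in 6 of the 11 heat-inducible members. Its median deviation over the heat-inducible members was -0.34 on the log2 scale, while the other animals lay between -0.09 and 0.15. The 70 members together took 1.06% of its counts, against 1.21 to 1.34% in the other untreated animals and 1.22 to 1.30% in the RG2833 animals. The same animal had the highest ribosomal RNA share, the lowest summed excitatory neuron level and the highest summed astrocyte and microglia levels. The part of these in its low values was not tested. The SD of log2 CPM was smaller in the RG2833 group in 45 of the 62 members (72.6%), as it was in 75.6% of all tested genes. Without untreated replicate 2 these shares were 67.7% and 70.7%.

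**Figure D4:**
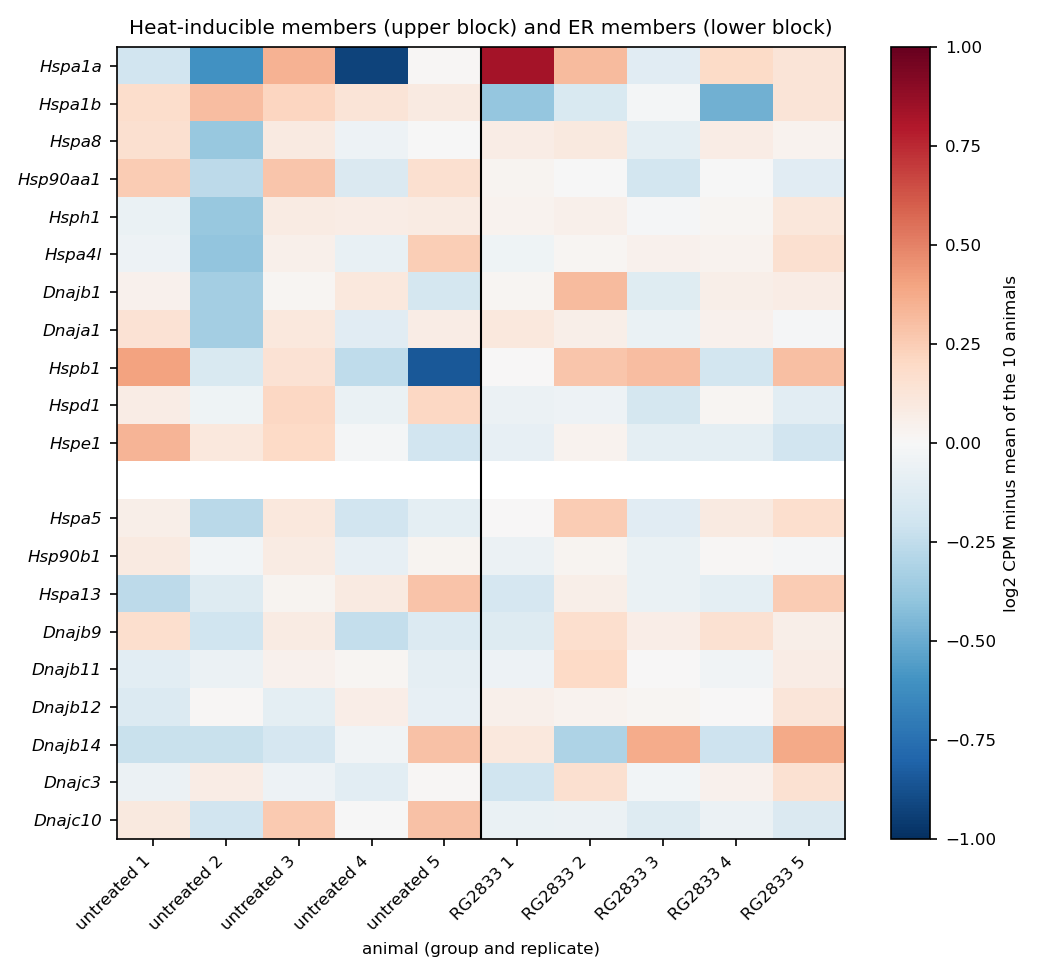
Deviation of log2 CPM from the mean of the 10 animals (colour, log2 scale from -1 to 1) for 11 heat-inducible members (upper block) and 9 ER members (lower block), by animal. Untreated replicate 2 is the lowest animal in 6 of the 11 heat-inducible members.

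Among genes that work with these chaperones, 60 of 62 listed partners were in the table and all 60 were tested. Of these, 3 were called (5.00%), all higher in RG2833 animals, against 5.08% of all tested genes. Hsf1, the main heat shock transcription factor, was at 43.5, 41.2, 38.8, 43.1 and 38.6 CPM in untreated replicates. RG2833 replicates had 48.6, 48.4, 50.9, 47.8 and 52.5 CPM, each above every untreated animal (log2 difference 0.27, SE 0.07, edgeR adjusted p = 0.0362). Hsf2, a second heat shock factor, averaged 40.6 ± 3.89 and 41.3 ± 3.80 CPM (SD, n = 5 each, edgeR adjusted p = 0.895).

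Bag6, which escorts tail-anchored and misplaced membrane proteins, was at 243, 265, 253, 269 and 277 CPM in untreated replicates and at 314, 310.5, 309, 299 and 320.4 CPM in RG2833 replicates. It rose without overlap (log2 difference 0.25, SE 0.06, edgeR adjusted p = 0.0412). Manf, a secreted ER stress protein with neurotrophic action, was at 39.7, 38.96, 37.8, 34.4 and 35.2 CPM and at 43.7, 55.7, 44.1, 54.3 and 44.4 CPM. It rose without overlap too (log2 difference 0.38, SE 0.09, edgeR adjusted p = 0.0361). Each of Hsf1, Bag6 and Manf passed in 2 of the 10 fits that left out 1 animal. These were the fits without untreated replicate 4 or 5, which called 13.1 and 7.61% of all genes. None of them passed with the ribosomal RNA share as a term, a fit that called 0.017% of all genes. In that fit, which cannot tell the share apart from the treatment, the log2 difference was 0.16 for Hsf1, 0.24 for Bag6 and 0.54 for Manf. Bag6 also did not pass with library totals only (edgeR adjusted p = 0.0618) or without a filter on low counts (edgeR adjusted p = 0.0574), where Hsf1 and Manf passed.

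The groups were without overlap in 7 of the 60 partners (11.7%), against 7.27% of all tested genes. The 5 partners next by p-value did not pass, and the groups of Grpel1, Xbp1 and Sgta among them did not overlap. Grpel1, which exchanges the nucleotide of Hspa9, averaged 53.6 ± 5.06 and 43.8 ± 2.37 CPM (SD, n = 5 each, log2 difference -0.29, edgeR adjusted p = 0.0507). It was called lower with DESeq2 size factors, library totals only, a mean count of at least 50 and DESeq2's Wald test, and without untreated replicate 4 or 5. Xbp1, the transcription factor of the IRE1 branch of the unfolded protein response, averaged 126 ± 13.4 and 153 ± 8.08 CPM (log2 difference 0.28, edgeR adjusted p = 0.0649). Sgta, a co-chaperone of Bag6, had a log2 difference of 0.21 (edgeR adjusted p = 0.0895), and Cct8 and Cct4, subunits of the cytosolic chaperonin, of -0.25 and -0.22 (edgeR adjusted p = 0.0907 and 0.0964). DESeq2's Wald test, which called 11.4% of all genes, also called Xbp1, Sgta, Cct8 and Cct4. Xbp1, Sgta and Cct8 were called without untreated replicate 4 as well, where 13.1% of all genes were called. Bag3, the partner of Hspb8, averaged 28.2 ± 4.997 and 38.2 ± 7.75 CPM (log2 difference 0.44, edgeR adjusted p = 0.101). The unfolded protein response factors Atf4 and Ddit3 had log2 differences of 0.02 and -0.05 (edgeR adjusted p = 0.917 and 0.834), and the small Hsp Cryab of -0.20 (edgeR adjusted p = 0.739).

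The 8 members that were not tested had hardly any counts in this tissue. Dnajb8 had 0 counts in all 10 animals, which allows up to 3 counts, or between 0.268 and 0.343 CPM, per animal. Dnajb7, Dnajc5b, Dnajc5g, Hspb3 and Hspb9 had between 1 and 8 counts over all 10 animals, Hspb7, a cardiac small Hsp, had 24, and Dnajc22 had 28. In the fit without a filter, which tested 69 members, Dnajb5 was again the only member called.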

How the data were processed

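Stranded mRNA libraries (Kapa kit, per the labels' protocols) of 10 rat hippocampi were analysed, 5 per group. Per the submitters' processing notes, bcl2fastq 2.17, Bowtie2 2.1.0, RSEM 1.2.15, edgeR and the build rn6 were used, with no role or order stated. The gene annotation is not given in the sources used here. The authors deposited expected counts (RSEM, 2 decimals, not normalized) and a normalized signal that follows TMM-scaled CPM. Columns were matched to animals by title, and no column was left unmapped.

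Expected counts were rounded, genes were kept by filterByExpr, and groups were compared with edgeR 4.0.16 (R 4.3.3) by the quasi-likelihood test with TMM scaling and no covariate. The SE is the effect over the root of the F statistic, and 95% intervals use the t quantile at the test's degrees of freedom. Log2 CPM had a prior count of 2. Fractional counts are those more than 0.005 from a whole number. Floors cover counting error only, since no molecular identifiers were counted.

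Per-animal values were to be given for called members, the 2 with the smallest p in each class and the heat-inducible, ER and vesicle lists, and for some of these only means or differences are printed. Partners were named if called, if among the 5 next by p, or on a short list (Hsf1, Hsf2, Bag3, Cryab, Xbp1, Atf4, Ddit3). The members and lists were chosen with earlier results of these data known. In 20 pairs within groups the chi-square per degree of freedom was between 4.72 and 38.1, so no library was a duplicate. Alternatives were DESeq2 1.42.0, limma 3.58.1 (voom, and trend on the deposited signal with pseudocounts of 1 and 0.1), other scalings and filters, an adjusted p under 0.1, a replicate block, the ribosomal RNA share as a covariate and each animal left out. The test was tested on simulated data. Apart from the median levels of the members and of all tested genes, levels are not compared between genes, because transcript lengths were not used here.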

Additional observations from a re-analysis of the deposited data

Results flagged for a closer look

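Each group of 5 values was checked for an animal far from the other 4, by the gap to its nearest neighbour over the whole range (Dixon's limit for 5 samples, 0.71). Over 136 groups of values of the tested members, the called partners, the merged Hspa1 pair, the total count and the ribosomal RNA share, 4 held such a value, where chance gives about 6.8. For Dnajb5, untreated replicate 4 had 231 CPM while its group otherwise spanned 126 to 147 CPM. Dnajc12, a co-chaperone of aromatic amino acid hydroxylases, was 16.6 CPM in RG2833 replicate 5, against 20.4 to 21.6 CPM. Dnajc9, a histone chaperone of replicating cells, was 20.8 CPM in the same animal, against 25.9 to 27.7 CPM. For Dnajc30, a mitochondrial member, untreated replicate 3 had 20.02 CPM and the rest of its group 18.3 to 18.8 CPM.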

How the results depend on the processing

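The call of 1 member, Dnajb5, was the same with DESeq2 size factors, library totals only, both other filters, limma-voom and limma trend. DESeq2's Wald test called 3 members (2 higher and 1 lower: Dnajb5, Dnaja4 and Hspa1b) and 9 partners, against 11.4% of all genes. An adjusted p under 0.1 gave 3 members (2 higher, 1 lower) and 8 partners, against 12.4% of all genes. The reported fit called 1 member and 3 partners, against 5.08% of all genes. Fitting the ribosomal RNA share as a term, 0 members and 0 partners were called, as were 0.017% of all genes, while the log2 differences were 0.30 for Dnajb5, 0.16 for Hsf1, 0.24 for Bag6 and 0.54 for Manf (0.62, 0.27, 0.25 and 0.38 in the reported fit), and the class medians of Hsp110 and the chaperonin moved from log2 fold changes of 0.07 and -0.17 to -0.14 and -0.064, which for Hsp110 is a change of sign. The Hsp110 median was also -0.0034 without untreated replicate 2. The ribosomal RNA share did not overlap between the groups, so the fit with that term cannot tell it apart from the treatment. With the replicate block 0 members, 0 higher, and 0 partners were called (Dnajb5 adjusted p = 0.0815), with log2 differences of 0.65 for Dnajb5, 0.28 for Hsf1, 0.25 for Bag6 and 0.37 for Manf. The numbers name different animals, 1 of 5 untreated animals correlated best with its own number, and the mean correlation of deviations was -0.066, so they did not pair the samples. Leaving out 1 animal gave 0 to 3 members called, 0 to 3 higher, 0 to 1 lower and 0 to 8 partners, while 0.826 to 13.1% of all genes were called. Without untreated replicate 4, 3 members (Dnajb5, Dnaja4 and Dnajb13) and 8 partners were called, against 13.1% of all genes. Without untreated replicate 5, 3 members (Dnajb5, Dnajc16 and Dnajc19) were called, against 7.61% of all genes. Without each of the other 8 animals, untreated replicates 1, 2 and 3 included, 0 members were called. The merged Hspa1 pair kept its direction and did not pass in any of 21 alternatives (0.09 to 0.64), and Dnajb5, Dnaja4, Hspa1b, Hsf1, Bag6 and Manf kept their direction in all of them.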
